A study of Homo sapiens with 40 samples.

Results

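H3K9me3 peaks that sat in the A compartment of control A549 cells and still overlapped an H3K9me3 peak after SETDB1 disruption numbered 4707. They were chosen by 3 measured values: a control peak under 20000 bp wide, a positive control compartment signal in the 100 kb bin at its midpoint, and at least 1 bp shared with a peak of the knockout list. The control list held 102976 H3K9me3 peaks, of which 46910 lay under the width limit in A bins. The 4707 kept peaks were 10.0% of these (95% Wilson interval 9.77 to 10.3), and the other 42203 A peaks overlapped no knockout peak and are called lost. In B bins, 35447 of 52699 peaks under the same limit (67.3%) were kept. Knockout peaks were also common in B sequence without a control peak under that limit, so an overlap there need not mean retention.

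A549, a long-established line from a human lung adenocarcinoma, was compared between control cells (CT in the labels) and cells in which SETDB1 carries a loss-of-function mutation made with CRISPR/Cas9 (KO). The labels do not say whether the mutant cells were 1 clone or a pool. The 40 samples held 3 RNA-seq and 2 Hi-C libraries of each genotype. For ChIP-seq, H3K4me3, H3K9me3, H3K27ac, H3K27me3 and CTCF were each precipitated in 2 libraries of each genotype, beside inputs. One peak list per target and genotype was deposited, so peak overlaps had no replicate error. Intervals on shares of peaks therefore cover counting error only, and neighbouring peaks are not independent.

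H3K9me3 is a histone mark of repressed chromatin that binds HP1 proteins, and SETDB1 is one of the methyltransferases that deposit it, with known targets among retroelements and zinc finger gene clusters. Hi-C divides chromosomes into an A compartment, in which genes are dense and active marks frequent, and a B compartment of more compact, repressed chromatin. H3K27me3, deposited by Polycomb repressive complex 2, is another repressive mark and is typical of facultative heterochromatin. H3K27ac and H3K4me3 mark active enhancers and promoters, and CTCF is the architectural DNA-binding protein found at many loop anchors.

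SETDB1 RNA was read first as a check of the labels. It stood at 37.5, 39.6 and 38.7 CPM (counts scaled to library size) in the control libraries and at 23.4, 21.2 and 21.1 CPM in the knockout libraries. The genotypes did not overlap, and the knockout retained 56.8% of the control mean. The change on the log2 scale was -0.82 (SE 0.054 from the replicate log2 CPM values, n = 3 against 3, edgeR quasi-likelihood test, adjusted p = 1.7e-12). That test called 62.8% of 17767 genes in either direction, so a call by itself was the common outcome in these libraries. RNA counts show transcript level and not whether the protein was functional. The sign of the compartment score is not explained in the sources used here. H3K27ac peaks in control cells overlapped 10.9% of lost H3K9me3 peaks in positive bins and 2.68% in negative bins, which gives the orientation used here, with positive as A.

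Kept peaks were wider than lost peaks in control cells. Their width ran from 286 to 19850 bp with a median of 3712 bp (quartiles 2138 and 6261.5), against a median of 1993 bp (quartiles 1155 and 3440) for lost peaks. The kept share rose from class to class of width, from 2.94% below 1 kb through 5.95%, 10.3% and 18.2% to 29.1% at 8 to 20 kb. Width and overlap are tied by construction, since a wider interval meets another peak more easily. At the width limit, 14 kept peaks measured 19 to under 20 kb, and 8 overlapping A peaks of 20 to under 21 kb fell just outside. At the compartment limit, 424 kept peaks of 1845 lay in bins with a control signal up to 0.05, and 495 of 1896 peaks overlapped a knockout peak in bins from -0.05 to 0. At the overlap limit, 25 kept peaks shared at most 100 bp with a knockout peak, and 24 lost peaks had one within 100 bp.

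Most kept peaks were retained in part of their length. Knockout peaks covered a median of 65.6% of a kept peak, 22.6% were wholly covered and 43 were covered under 5%. In B bins 78.1% of kept peaks were wholly covered. Kept A peaks summed to 22.4 Mb in control cells, of which 12.1 Mb (53.8%) stayed under knockout peaks, while lost A peaks summed to 115 Mb. The 4648 knockout peaks over them had a median width of 2789.5 bp. In 3598 pairs of exactly 1 control and 1 knockout peak, the knockout peak was narrower in 64.7% and lay wholly inside the control peak in 40.6%. The median ratio of knockout to control width in these pairs was 0.745. Only 6.56% of kept A peaks lay under a knockout peak of 20 kb or more, against 60.7% of kept B peaks, and 1.81% lay under a knockout peak that reached a B bin. With A called from control Hi-C replicate 1 or replicate 2 alone, and B still from the pooled signal, the last share was 5.50% or 3.65%.

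The 3 widest autosomal kept peaks were retained in part, each below the median coverage of 65.6%, so they are not typical members. The control peak at chr21:15789717-15809566 (hg19, 19850 bp) met 2 knockout peaks, the wider of 2300 bp, that covered 15.9% of it. The peak at chr5:174246965-174266659 (19695 bp) met 1 knockout peak of 4227 bp inside it, at chr5:174258949-174263175, that covered 21.5% of it. The peak at chr8:37054411-37074100 (19690 bp) kept 55.5% of its length under a knockout peak of 10933 bp. All 3 overlapped H3K27me3 peaks in both genotypes, none overlapped H3K27ac, and the chr5 peak overlapped H3K4me3 in control cells. The bin of the chr5 peak changed sign, with signals of 0.80 and 0.78 in the control replicates and -0.33 and -0.26 in the knockout replicates. The chr21 and chr5 peaks were also the widest kept peaks under a narrow knockout peak with every touched bin in A.

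H3K27me3 separated kept from lost A peaks more than any other mark measured, in both genotypes. In control cells 86.9% of kept peaks (95% interval 85.9 to 87.8) overlapped an H3K27me3 peak, against 30.8% of lost peaks. The difference was 56.1 percentage points (95% Newcombe interval 55.0 to 57.1). In knockout cells the shares were 81.8% and 25.5%, a difference of 56.4 points (55.2 to 57.5). Kept peaks had the higher share on 23 of 23 chromosomes in both genotypes. In control cells the difference ran from 37.9 points on chromosome 13 to 78.6 on chromosome 22, where only 6 peaks were kept. H3K27me3 was not used to choose the peaks. Per the labels, the H3K9me3 and H3K27me3 libraries of a genotype have input replicate 2 in common.

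**Figure D1:**
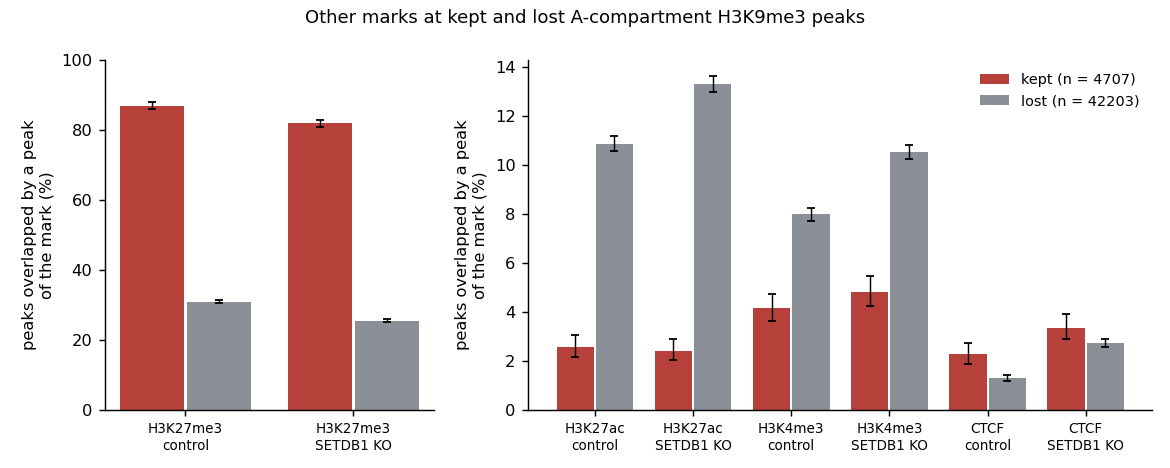
Percent of kept (red) and lost (grey) A-compartment H3K9me3 peaks overlapped by at least 1 bp of a peak of each mark in control and SETDB1 KO cells; the right panel has its own scale and error bars are 95% Wilson intervals for counting error. H3K27me3 was at 86.9% of kept and 30.8% of lost peaks in control cells, while H3K27ac was at 2.57% and 10.9%.

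The excess was present at every width. Within each of 5 width classes the control H3K27me3 share of kept peaks exceeded that of lost peaks, by 46.3 points below 1 kb and by 50.8 points at 8 to 20 kb. Weighted to the widths of lost peaks, the difference was 50.5 points in control cells and 49.1 in knockout cells. Kept and lost peaks that shared a 100 kb bin differed less. In the 2120 bins with both kinds, 90.9% of 4103 kept and 63.6% of 7925 lost peaks overlapped H3K27me3 in control cells, a difference of 27.3 points (25.9 to 28.6). In knockout cells the difference within these bins was 29.3 points. The size also depended on how overlap was counted: with at least 50% of the H3K27me3 peak required to lie inside, it was 24.7 points in control cells and 22.4 in knockout cells.

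Around the centre of a control H3K9me3 peak, H3K27me3 covered that point in 79.7% of kept and 25.7% of lost peaks in control cells. In knockout cells these values were 75.4% and 20.3%. At 20 kb to the left, control H3K27me3 still covered 40.4% of positions beside kept peaks and 11.3% beside lost peaks. The mark was thus more frequent around kept peaks over the whole distance plotted and had its maximum at the H3K9me3 peak itself. Control H3K27ac dipped at the centre instead. Beside lost peaks it covered 6.61% of positions at 20 kb to the left, 7.68% at 3 kb to the left and 3.81% at the centre. Beside kept peaks these values were 1.47%, 1.13% and 0.66%.

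**Figure D2:**
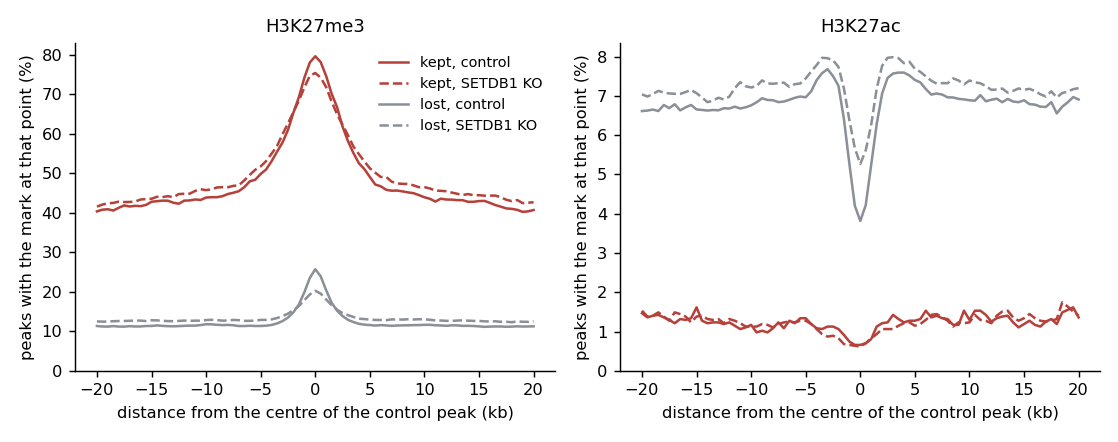
Percent of kept (red) and lost (grey) A-compartment H3K9me3 peaks with an H3K27me3 peak (left) or H3K27ac peak (right) at each distance from the centre of the control H3K9me3 peak, in 500 bp steps over 20 kb to each side; solid lines are control cells and dashed lines SETDB1 KO cells. H3K27me3 in control cells reached 79.7% at the centre of kept peaks and 25.7% at the centre of lost peaks.

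Sorted by H3K27me3, A peaks were kept at very different rates. Of 13323 A peaks with H3K27me3 in both genotypes, 28.0% were kept, and of 28536 with it in neither, 1.75%. Peaks with H3K27me3 only in control cells were kept in 9.47% and peaks with it only in knockout cells in 9.21%. Among peaks with H3K27me3 in both genotypes the kept share ran from 10.1% below 1 kb to 52.1% at 8 to 20 kb, and among peaks without it from 1.15% to 3.79%. The order was reversed in the B compartment, where 49.99% of peaks with H3K27me3 in both genotypes and 73.2% of peaks with it in neither were kept. These B shares stand on a high background. Knockout H3K9me3 covered 46.2% of B sequence under neither H3K27me3 nor an H3K9me3 peak under 20 kb in control cells, against 0.89% in A. In B bins the control H3K27me3 share was 29.0% of kept and 43.8% of lost peaks, and it was higher in kept peaks on 4 of 23 chromosomes.

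**Figure D3:**
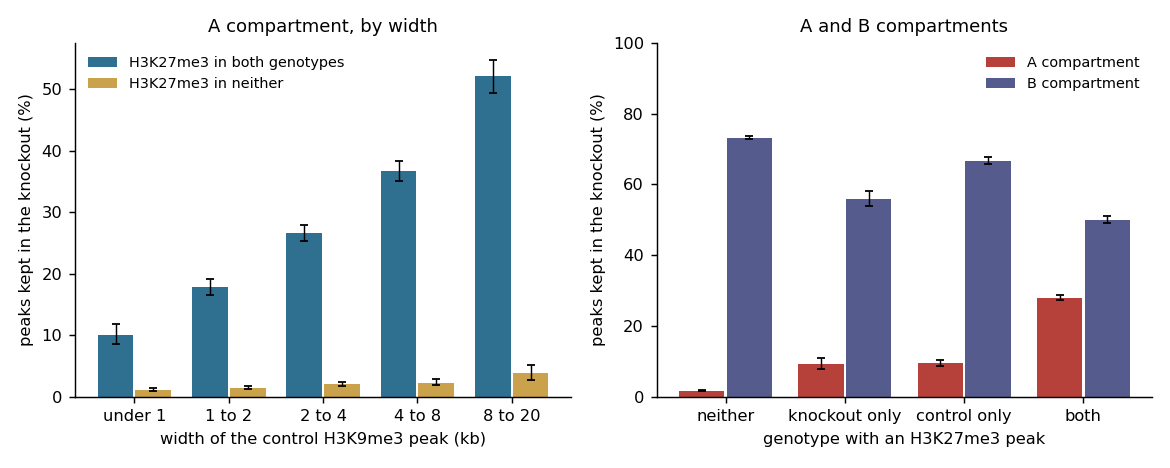
Percent of control H3K9me3 peaks under 20 kb that were kept in the knockout, with 95% Wilson intervals. The left panel splits A peaks by width and by H3K27me3 in both genotypes (blue) or neither (yellow), and the right panel splits A (red) and B (violet) peaks by the genotypes with an H3K27me3 peak. A peaks with H3K27me3 in both genotypes were kept in 28.0% and B peaks in 49.99%, while those with it in neither were kept in 1.75% and 73.2%.

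In A bins, H3K27me3 itself was held more often at kept peaks. Of kept A peaks with H3K27me3 in control cells, 91.3% (90.4 to 92.1) had it in knockout cells, against 73.8% (73.0 to 74.5) of lost peaks. Of kept A peaks without it in control cells, 19.2% of 616 had it in knockout cells, against 3.98% of 29201 lost peaks. In all, 79.3% of kept A peaks had H3K27me3 in both genotypes and 89.4% in at least 1. These shares were not adjusted for width, and kept peaks were wider. The order was reversed in B bins, where 47.1% of kept and 64.1% of lost peaks with control H3K27me3 held it. Of B peaks without it in control cells, 4.55% of kept and 9.29% of lost peaks had it in knockout cells. Both H3K27me3 lists and the knockout H3K9me3 list come from separate immunoprecipitations, so co-occupancy of the same nucleosome or cell was not measured.

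Counted by base pair, the same sequence classes stood apart. In A bins, knockout H3K9me3 peaks covered 20.9% of the 47.6 Mb under both H3K9me3 and H3K27me3 in control cells. They covered 2.29% of the 90.1 Mb under control H3K9me3 alone. They also covered 9.84% of the 82.0 Mb under control H3K27me3 alone and 0.89% of A sequence under neither mark. Only control H3K9me3 peaks under 20 kb entered these classes, so sequence under wider control peaks was counted as without H3K9me3. Coverage in the last 2 classes is therefore not all new H3K9me3. Coverage of control H3K9me3 sequence was higher where H3K27me3 was present on 23 of 23 chromosomes in A bins and on 4 of 23 in B bins, where it was 49.9% with and 70.4% without H3K27me3. By the same count, knockout H3K9me3 covered 47.6% of B sequence under control H3K27me3 alone and 46.2% under neither mark. The 49.9% in B bins was thus near the coverage of B sequence without control H3K9me3. Within kept peaks, control H3K27me3 covered 82.8% of the retained sequence and 74.6% of the sequence that left the knockout peaks. Of 4696 knockout peaks under 20 kb in A bins over a control peak, 87.0% overlapped knockout H3K27me3, and so did 61.3% of 3044 such peaks with no control peak.

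Active marks were less frequent at kept peaks. H3K27ac overlapped 2.57% of kept and 10.9% of lost A peaks in control cells, a difference of -8.31 points (-8.83 to -7.74), and 2.42% and 13.3% in knockout cells, a difference of -10.9 points (-11.4 to -10.3). Its share was lower in kept peaks on 23 of 23 chromosomes in both genotypes. The difference was smaller in bins with both kinds of peak, at -3.26 points in control and -4.29 in knockout cells. With at least 50% of the H3K27ac peak required inside, it was -2.40 and -3.86 points. H3K4me3 overlapped 4.14% of kept and 7.99% of lost peaks in control cells and 4.82% and 10.5% in knockout cells. It was lower in kept peaks on 22 of 23 chromosomes in each genotype, chromosome 19 being the exception. With at least 50% of the H3K4me3 peak required inside, the control difference shrank to -0.23 points.

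The H3K27ac difference in control cells followed the H3K27me3 split. Among peaks with control H3K27me3, H3K27ac overlapped 0.83% of kept and 0.97% of lost peaks, and among peaks without it 14.1% and 15.3%. Both intervals of the difference included 0 (-0.44 to 0.22 and -3.74 to 1.82 points). In knockout cells, kept peaks without knockout H3K27me3 carried H3K27ac in 7.84% and lost peaks in 17.3%. That difference was -9.45 points (-11.1 to -7.42). H3K27me3 without either active mark was the state of 83.9% of kept peaks in control cells, and of 29.7% of lost peaks. None of the 3 histone marks was called at 11.1% of kept and 57.0% of lost peaks.

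A few kept peaks held active marks. The widest with H3K4me3 and H3K27ac in both genotypes was chr15:26840202-26859443 (19242 bp), 94.7% covered in the knockout by 2 peaks and without H3K27me3 in either genotype. Its bin signal was 0.54 and 0.45 in the control replicates and 0.06 and -0.06 in the knockout replicates. The next, chr2:27789208-27805667 (16460 bp), was 82.0% covered, carried H3K27me3 in both genotypes and lay in a bin with signals from 1.16 to 1.41 over the 4 replicates. These peaks were picked for having the marks, so their overlaps describe them and test nothing.

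CTCF peaks overlapped few peaks of either kind. The share was 2.27% of kept and 1.30% of lost A peaks in control cells (difference 0.97 points, 0.57 to 1.45), and 3.36% and 2.73% in knockout cells (0.63 points, 0.12 to 1.20). Weighted to the widths of lost peaks, these differences became 0.15 and -0.66 points, so the knockout difference changed sign. Edges of control topological domains lay within 20 kb of 8.07% of kept and 10.5% of lost peaks, at a median distance of 109 kb and 98.1 kb.

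Kept peaks lay in A bins with weaker control signal. The median control signal of the bin was 0.34 for kept and 0.58 for lost peaks. The kept share fell from 19.1% in the lowest quintile of A peaks by control signal through 12.7%, 8.40% and 5.78% to 4.13% in the highest quintile. Sign and size of the control signal entered the choice of peaks only through the limit at 0. H3K27me3 moved with this order: 51.4% of all A peaks in the lowest quintile and 25.01% in the highest overlapped it in control cells. Among peaks with H3K27me3 in both genotypes the kept share still fell, from 33.4% to 18.9%.

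Distance to the B compartment was less regular. Kept peaks sat a median of 9 bins from the nearest B bin and lost peaks 8. The kept share was 15.3% in bins next to a B bin, 9.98% at 2 bins, 8.13% at 3 to 5, 7.46% at 6 to 10, 9.81% at 11 to 20 and 11.2% at 21 or more. Next to a B bin lay 18.4% of kept and 11.4% of lost peaks, while 44.6% and 42.4% lay more than 10 bins away. The first difference, 7.03 points, was turned around among peaks whose bin was A in both genotypes, where 6.33% of kept and 7.42% of lost peaks had a B neighbour. The 3 autosomal kept peaks farthest from B were at chr9:140973448-140984099, chr9:140926730-140929586 and chr9:140881255-140886151, at 153 to 154 bins. They were covered at 29.7%, 52.0% and 2.51% and overlapped H3K27me3 in both genotypes and none of the other marks.

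By chromosome, the kept share was highest on chromosome 8, at 17.0% of 2931 A peaks (15.6 to 18.4), and lowest on chromosome 22, at 6 of 384 (1.56%, 0.72 to 3.37). H3K27me3 overlapped 45.7% of all A peaks on chromosome 8 and 22.7% on chromosome 22. Chromosomes 14 and 5 followed chromosome 8, at 14.4% and 13.6%, with overlapping intervals between them. The interval of chromosome 14 (12.8 to 16.2) also overlapped that of chromosome 8. Chromosome 4, at 4.34%, and chromosome 1, at 5.47%, were the next lowest, again with overlapping intervals. Among A peaks with H3K27me3 in both genotypes, 34.9% were kept on chromosome 8 and 9.68% of 62 on chromosome 22. Chromosome 8 did not stand out among these peaks, with 35.0% kept on chromosome 5 and 34.1% on chromosome 14.

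**Figure D4:**
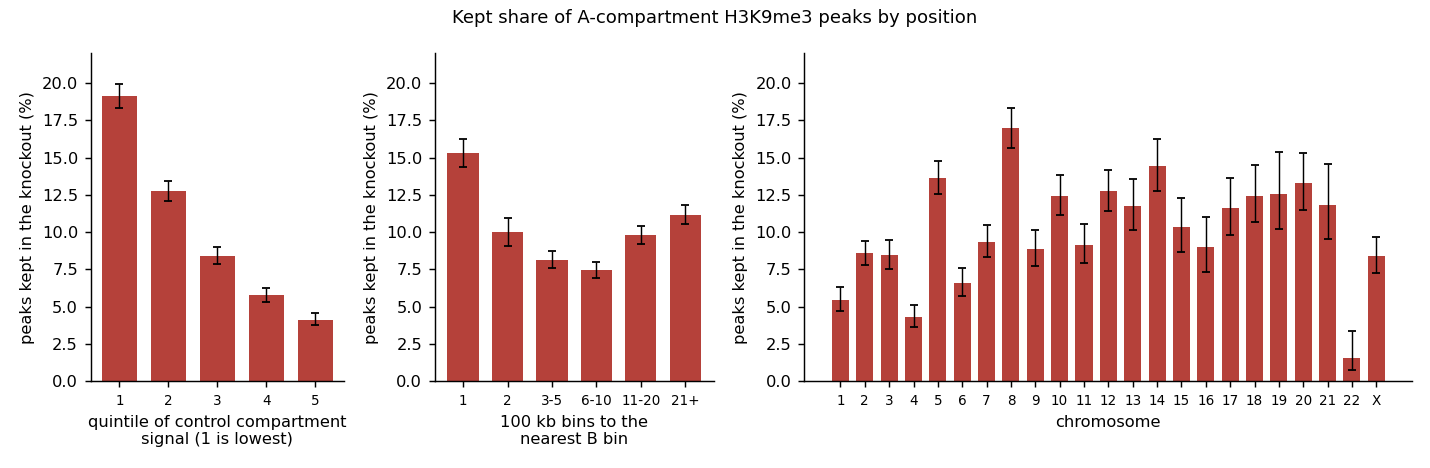
Percent of A-compartment H3K9me3 peaks under 20 kb kept in the knockout, with 95% Wilson intervals, by quintile of control compartment signal over peaks (left), by distance to the nearest B bin in 100 kb bins (middle) and by chromosome (right). The share fell from 19.1% to 4.13% over the quintiles, was 15.3% beside a B bin, and was highest on chromosome 8 and lowest on chromosome 22.

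Kept peaks occupied 2305 bins, 52.9% of kept peaks lay in the 566 bins with at least 3 kept peaks, and 1 bin held 12. Another kept peak lay within 10 kb of 47.7% of kept peaks, while another A peak, kept or lost, lay within 10 kb of 62.5% of all A peaks, which are more numerous. The densest 1 Mb window, chr12:115000001-116000000, kept 56 of 56 A peaks. All its 10 bins were A in control cells (mean signal 0.24 in each replicate) and B in knockout cells (-0.998 and -1.02), and H3K27me3 overlapped 20 of the 56 peaks in control cells and 0 in knockout cells. Next came 3 windows with 36 kept peaks each: chr13:75000001-76000000 (of 40 A peaks), chr6:156000001-157000000 (of 50) and chr8:21000001-22000000 (of 47). H3K27me3 overlapped 2, 17 and 33 of their kept peaks in control cells and 0, 2 and 15 in knockout cells. Of the 10 bins in each window, 10, 7 and 10 were A in control cells and 1, 0 and 5 in knockout cells.

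The knockout compartment sign, which did not enter the choice, split the kept peaks into a larger and a smaller set. Bins that were B in the knockout held 39.2% of kept peaks (37.9 to 40.6) and 11.1% of lost peaks (10.8 to 11.4). These shares are not matched for control signal, which was weaker at kept peaks. In the lowest quintile of A bins by control signal, 62.9% of bins with a kept peak and 31.3% with lost peaks only were B in the knockout. In the highest quintile these shares were 2.35% and 0%. In bins that changed from A to B, 28.3% of 6518 peaks were kept, and in bins that stayed A, 7.08% of 40387. The 2860 kept peaks in bins that stayed A overlapped H3K27me3 in 93.4% in control and 95.7% in knockout cells, against 27.7% and 22.9% of lost peaks there. The 1847 kept peaks in bins that changed to B overlapped it in 76.9% and 60.4%, against 55.6% and 46.5% of lost peaks there. The difference in knockout cells was thus 72.8 points (71.9 to 73.6) in bins that stayed A and 13.9 points (11.2 to 16.5) in bins that changed. These intervals cover counting error only, and the contrast between these sets of bins was not tested.

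Most kept peaks without H3K27me3 lay in bins that changed compartment. Of the 498 kept peaks with H3K27me3 in neither genotype, 80.7% lay in bins that changed to B, 28.7% lay under a knockout peak of 20 kb or more, and their median coverage was 99.7%. In bins that stayed A, 96 of 26211 peaks without H3K27me3 were kept (0.37%, 0.30 to 0.45), against 25.9% of 10219 peaks with it in both genotypes. In bins that changed to B these shares were 17.3% and 35.1%. Kept peaks under a knockout peak of 20 kb or more, 309 in all, had H3K27me3 in 53.7% in control and 14.2% in knockout cells, and 93.2% of them lay in bins that changed to B. The base-pair count gave the same order: in bins that stayed A, knockout H3K9me3 covered 18.3% of control H3K9me3 sequence with H3K27me3 and 0.88% without it, and in bins that changed to B 29.7% and 16.4%. Sequence outside control H3K9me3 peaks under 20 kb was also covered more in bins that changed. There it was covered at 14.8% with control H3K27me3 and 8.88% without it, against 7.36% and 0.12% in bins that stayed A. Overlap in bins that changed is therefore not retention alone.

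Bins with kept peaks were called lower in compartment signal more often than other A bins. Over all bins the limma test on the 4 Hi-C replicates called 37.3% lower and 21.5% higher in the knockout (adjusted p under 0.05), and over A bins 32.9% lower and 17.1% higher. Of 2303 tested A bins with a kept peak, 1230 (53.4%, 51.4 to 55.4) were called lower and 324 (14.1%) higher, with a median difference of -0.14. Of 10626 A bins with lost peaks only, 29.3% were called lower and 18.6% higher, with a median difference of -0.02. The control signal that placed both kinds of bin in A also entered the tested difference. Calls in A bins are therefore not independent of the choice of bins. Kept peaks also required a knockout H3K9me3 peak, and such peaks were more frequent in B sequence. The contrast between the kinds of bin thus describes them and is not a test apart from that choice. Bins with at least 3 kept peaks were called lower in 63.9% and had a negative knockout signal in 46.9%.

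Replicates of a genotype lay close together. Bins with a kept peak had mean signals of 0.447 and 0.450 in the control and 0.256 and 0.255 in the knockout replicates, and bins with lost peaks only 0.657 and 0.660 in the control and 0.623 and 0.617 in the knockout replicates. The gap between the kinds of bin was -0.210 in each control replicate and -0.367 and -0.362 in the knockout replicates. An exact two-sided permutation test on these 4 gaps gave p = 0.333, the smallest p that 2 against 2 replicates allow. The larger decline of bins with kept peaks was seen in every quintile of control signal, taken over all A bins. The control signal thus set both the quintiles and the start of each decline. In the lowest quintile, 68.6% of bins with a kept peak and 36.5% with lost peaks only were called lower, and in the highest quintile 37.1% and 28.4%.

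**Figure D5:**
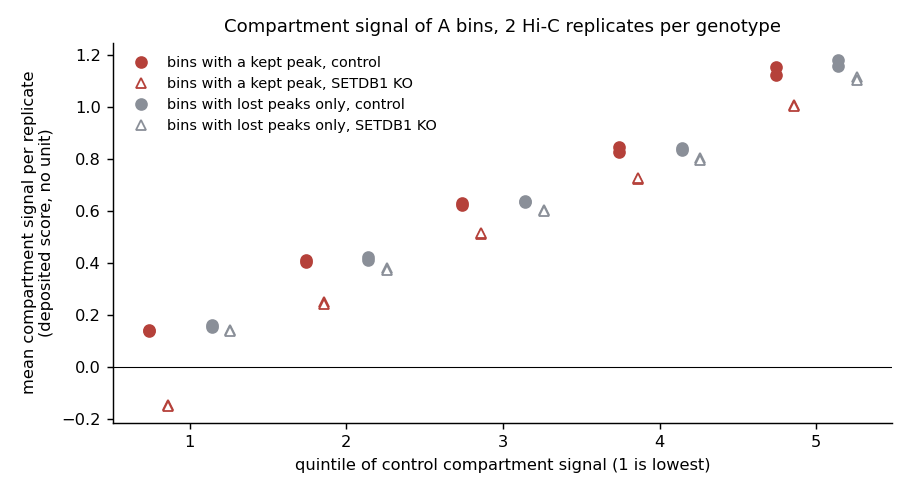
Mean compartment signal (deposited score without a unit) in each of 2 Hi-C replicates per genotype, for A bins with a kept peak (red) and with lost peaks only (grey), by quintile of control signal over A bins; filled circles are control and open triangles SETDB1 KO replicates. In the lowest quintile, bins with a kept peak were at 0.143 and 0.139 in control and at -0.148 and -0.149 in knockout replicates, while bins with lost peaks only were at 0.160 and 0.152 and at 0.140 and 0.136.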

How the data were processed

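Per the submitters' processing notes, reads were handled with STAR 2.6.1c, edgeR 3.30.0, Bowtie2 2.2.3, SAMtools 1.5, Picard and MACS2 on hg19; each tool's role, the threshold for peaks and whether libraries were pooled are not given in the sources used here. The deposited gene table held whole-number counts, and the deposited compartment table a signed score per 100 kb bin for each replicate and genotype. The deposited peak lists held positions only, so the read depth behind a peak is unknown. RNA libraries held 18065062 to 48364919 counts. Nothing in the labels says that libraries of a group came from separate cultures, so p-values measure the spread between these samples. The KO H3K4me3 libraries, whose titles drop a digit from the mark, took their group from the description field. Columns left without a sample numbered 0.

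Peaks were intersected with at least 1 bp shared (numpy 2.4.6, pandas 2.3.3, scipy 1.17.1, bedtools 2.31.1, Python 3.11.15), and distance to B counted bins. Counts were tested with edgeR 4.0.16 and bins with limma 3.58.1 in R 4.3.3, both adjusted by Benjamini-Hochberg at 0.05 over all features. CPM used TMM-scaled library sizes. Scripts were tested on simulated data. The kept peaks, the comparisons and the rule for named regions were chosen with earlier results of these data known. Named were the 3 widest autosomal kept peaks, the 3 farthest from B, the 1 Mb windows with most kept peaks, the extreme chromosomes with at least 200 A peaks, the 2 widest kept peaks with both active marks in both genotypes and the 2 widest under a narrow knockout peak; chromosomes 1, 4, 5 and 14 were added after their values were seen. Genes at the peaks, and sequences, were not analysed here. Alternatives covered overlap, width, compartment and mark rules, DESeq2 1.42.0, left-out replicates and replicate blocks. Same-numbered replicates deviated together with correlations of 0.21, 0.13 and 0.07 in RNA and of -0.003 in Hi-C, so their numbers were not taken to pair the samples.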

Additional observations from a re-analysis of the deposited data

Results flagged for a closer look

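H3K27me3 differed between kept and lost H3K9me3 peaks in opposite directions in the 2 compartments. In control cells the share of kept minus the share of lost peaks was 56.1 points in A bins and -14.8 points in B bins. In knockout cells it was 56.4 points in A bins and -16.4 points in B bins. The difference between compartments was not tested, since 1 peak list per mark and genotype leaves no replicates. On single chromosomes the B difference ran from -62.8 points on chromosome 21 to 27.4 points on chromosome 22 in control cells, while the A difference was above 0 on all 23.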

How the results depend on the processing

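Of 208 recomputed values, 131 stayed within their limit, 75 moved beyond it and 2 changed sign. The limit was the 95% interval of a reported share or difference, 1.5 times for a number of peaks, and the same side of the SETDB1 threshold. For the width ratio it ran between the ratios of opposite ends of the 95% intervals of the 2 medians, which is wider than a 95% interval. The cause of a move was not tested beyond what the alternative itself removes. With at least 50% of the control peak covered, 2986 peaks were kept (6.37%), the ratio of kept to lost median width was 1.44, the excess of kept peaks next to a B bin was 8.50 points, and the H3K27me3 difference was 52.1 points in control and 49.6 in knockout cells. With 50% reciprocal overlap these values were 1745, 3.72%, 1.66, 2.91, 57.8 and 63.3. In bins A in both genotypes they were 2860, 7.08%, 2.04, -1.09, 65.7 and 72.8, so the difference next to B changed sign. With control signal above the 10th percentile, the kept share was 8.49%, the width ratio 1.94, the difference next to B 0.56 points, and H3K27me3 differed by 59.1 and 63.2 points. With knockout peaks under 20 kb only, the share was 9.40%, the difference next to B 5.79 points, and H3K27me3 differed by 58.2 and 61.0 points. Control and knockout H3K27me3 differences were 24.7 and 22.4 points with 50% of its peak inside, 50.5 and 49.1 by width classes of lost peaks (CTCF in knockout cells -0.66), 27.3 and 29.3 in bins with both kinds, and 58.0 and 59.9 without a B neighbour; allowing 1 kb of distance gave 55.0 in knockout cells. H3K27ac stayed lower in kept peaks throughout, by -13.5 to -2.40 points in control cells. Calling A from control Hi-C replicate 1 or 2 alone gave 5.68 or 5.87 points next to B, and 5.50% or 3.65% of kept peaks under a knockout peak reaching B. Bins with a kept peak were called lower in 57.0% with columns divided by their SD (20.9 points above bins with lost peaks only), in 63.9% where they held at least 3 kept peaks (34.6 points), and in 45.9% to 52.2% without 1 Hi-C replicate. With a replicate block they were called lower in 54.2% (1249 bins, against 1230 without the block), and the SETDB1 change was -0.82. Both stayed within the limits given above. Peak lists without scores set the limit: a stricter peak threshold and the depth behind a lost peak were not analysed here, and a lost peak is one without a call, not one shown to lack the mark.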
